A study of Rattus norvegicus with 20 samples.

Results

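The genes described here are the 36 protein-coding genes, of 39747 in the count table, whose symbols begin with Ndufa, Ndufb, Ndufc, Ndufs or Ndufv followed by a number. This rule takes most nuclear genes for subunits of mitochondrial complex I and leaves out the Ndufaf assembly factors. The RNA came from dorsal root ganglia (DRG), the clusters of sensory neuron cell bodies beside the spinal cord, of 14 female Sprague-Dawley rats. Rats ate a soy oil diet (SOD), the control diet, or a diet enriched in fish oil (FOD) for 4 weeks. They then had either a chronic constriction injury (CCI), in which loose ligatures are tied around the left sciatic nerve, or a sham operation that only exposed the nerve (CT). Libraries of the left DRG numbered 4 for SOD-CT and 3 for FOD-CT after sham surgery, and 3 for SOD-CCI and 4 for FOD-CCI after injury. The right, contralateral DRG of the 3 SOD-CCI rats and of 3 of the FOD-CCI rats gave 3 libraries each. All groups shared the sex, the strain and surgery on the left side, and the labels give all rats as WT. The sources differ on whether collection came 1 week after surgery or after 4 further weeks of diet, and neither the spinal level nor the number of ganglia per library is given in the sources used here.

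Complex I (NADH:ubiquinone oxidoreductase) is the entry point of electrons from NADH into the respiratory chain and pumps protons across the inner mitochondrial membrane. Its catalytic work is done by core subunits, some encoded in the nucleus and some in mitochondrial DNA, and a larger number of accessory subunits surrounds them in a peripheral arm that reaches into the matrix and a membrane arm. Sensory neurons have long axons and a high demand for ATP, and impaired mitochondrial respiration is a known feature of painful neuropathies.

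Of the 36 genes, 7 encode core subunits, 9 accessory subunits of the peripheral arm and 17 accessory subunits of the membrane arm. The remaining 3 were taken by their symbols alone. Ndufa4 encodes a subunit of complex IV, Ndufa4l2 is its paralog, known for induction by low oxygen, and Ndufa10l1 is a paralog of Ndufa10. The row named Ndufs6 carries a gene ID that the RefSeq annotation of the rat assembly GRCr8 lists as a pseudogene, and it had 5 to 240 counts per library. The gene that GRCr8 names Ndufs6 stands under the symbol LOC679739, with a mean of 2056 counts, outside the rule. Further complex I genes outside the rule were Ndufab1, the acyl carrier protein of the complex, and LOC100911483, which GRCr8 names Ndufa13. Also outside it were LOC108348144, described there by the protein entry NDUA1 and with a mean of 2553 counts, and Ndufb1, which the table lists as a long noncoding RNA. The count table holds 0 rows from the mitochondrial chromosome, so the core subunits encoded there were not analysed here. The table also holds rows for copies of members, such as LOC100361934, which GRCr8 names Ndufb4l4, and LOC100363268, which it names Ndufs5-ps2, so the values of Ndufb4 and Ndufs5 are uncertain where the counting could split their reads.

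The promoters of the members were searched for motifs that some of them might share. RefSeq's GRCr8 promoter table, which covers 250 bases before to 50 after each gene's start, held 31 of the 36 genes. Exact matches on both strands were sought for a core of the NRF1 motif (GCGCATGC), an ETS family motif (CCGGAAG) and a YY1 motif (AAGATGGC), the binding sequences of factors known for the control of nuclear respiratory genes. The YY1 letters were found in 8 of 31 member promoters (25.8%) and in 3.44% of all 27457 promoters. The ETS letters were in 5 (16.1%, against 9.22%) and the NRF1 letters in 2 (6.45%, against 2.66%). Any of the 3 motifs was present in 12 of 31 promoters (38.7%), against 14.1% of all. The YY1 matches began between 1 base before and 27 bases after the start, in Ndufa2, Ndufa3, Ndufa4l2, Ndufa6, Ndufa9, Ndufb8, Ndufs4 and Ndufs7. Ndufa11 held 4 overlapping NRF1 matches. These matches are letters in a window and not measured binding. The promoters of 3 subunit genes with wide swings between libraries (Ndufa6, Ndufa5, Ndufs5) and of a core subunit gene with a narrow range (Ndufs1) are printed 5′ to 3′, with motif matches in capitals.
Ndufa6, chr7:115750268-115750567, strand -: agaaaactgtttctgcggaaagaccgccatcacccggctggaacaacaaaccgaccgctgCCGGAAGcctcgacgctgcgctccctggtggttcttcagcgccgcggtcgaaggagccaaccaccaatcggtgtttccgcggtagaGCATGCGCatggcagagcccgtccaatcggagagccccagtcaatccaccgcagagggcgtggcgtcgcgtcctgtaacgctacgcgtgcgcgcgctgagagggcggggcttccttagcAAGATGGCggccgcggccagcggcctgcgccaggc
Ndufa5, chr4:53971186-53971485, strand -: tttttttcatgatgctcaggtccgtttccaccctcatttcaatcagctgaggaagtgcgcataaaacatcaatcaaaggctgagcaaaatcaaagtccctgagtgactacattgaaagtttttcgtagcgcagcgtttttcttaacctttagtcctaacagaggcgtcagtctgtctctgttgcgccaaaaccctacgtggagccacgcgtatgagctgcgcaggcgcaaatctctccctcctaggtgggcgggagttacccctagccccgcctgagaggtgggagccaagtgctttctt
Ndufs5, chr5:141264353-141264652, strand -: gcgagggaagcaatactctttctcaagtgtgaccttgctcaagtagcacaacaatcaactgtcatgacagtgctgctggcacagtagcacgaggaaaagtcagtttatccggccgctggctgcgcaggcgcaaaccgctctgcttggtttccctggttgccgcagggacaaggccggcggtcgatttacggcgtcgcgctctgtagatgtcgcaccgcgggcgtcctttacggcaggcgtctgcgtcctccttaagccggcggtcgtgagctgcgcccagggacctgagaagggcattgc
Ndufs1, chr9:72073556-72073855, strand -: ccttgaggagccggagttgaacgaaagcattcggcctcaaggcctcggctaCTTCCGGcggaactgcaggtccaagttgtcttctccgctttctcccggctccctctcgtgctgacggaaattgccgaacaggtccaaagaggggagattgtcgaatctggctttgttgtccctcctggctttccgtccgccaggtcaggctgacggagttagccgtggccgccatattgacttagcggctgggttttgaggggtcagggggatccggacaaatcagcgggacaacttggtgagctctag
Ndufa6 alone among the 31 held all of the 3 motifs, Ndufs1 held 1 ETS match on the reverse strand, and Ndufa5 and Ndufs5 held none of the exact letters searched.

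Library totals ran from 22547190 to 54437581 counts, with a median of 29051399. Expression is given in CPM, counts scaled to a common library size by TMM, and changes as log2 fold changes with standard errors (SE) from edgeR fits across all genes. The fits took genes that reached 10 counts in 90% of their libraries. A call required a p of 0.1 or less after Benjamini-Hochberg adjustment, together with a change of 1.2-fold or more. With 1 library from each side of a rat, p-values measure the spread between these rats. In bulk DRG, fewer cells of a type and less RNA per cell cannot be told apart. Sensory neuron markers (16 genes, none at 0 in every library of any group) were present in every group, with the lowest sum, 4584 CPM and 2 genes at 0, in the contralateral library of FOD-CCI rat 1 and 14753 CPM or more elsewhere. Some libraries also held transcripts of other tissues. In SOD-CT replicate 1, 15.1% of the counts fell on a list of skeletal muscle genes (17 of 17 found), as did 3.28% in FOD-CT replicate 2. The share was 1.09% in the contralateral library of FOD-CCI rat 3, 0.785% in SOD-CT replicate 4 and lower elsewhere. Spinal cord glia genes (7 of 7 found) summed to 2658, 2213 and 3470 CPM in replicate 1 of FOD-CT, FOD-CCI and the contralateral FOD-CCI DRG, and to at most 102 CPM in the SOD groups. Red cell genes, mainly globins (5 of 6 found), summed to 22320 CPM in FOD-CCI replicate 2, to 9289 CPM in SOD-CT replicate 4 and to at most 4732 CPM elsewhere.

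Levels per length, as median FPKM over the 19 libraries other than SOD-CT replicate 1, were highest for Ndufa4 (629), followed by Ndufb8 (364), Ndufa5 (324), Ndufs5 (322) and Ndufa6 (288). Ndufa5 ranged from 160 to 611 FPKM and Ndufs5 from 167 to 793 FPKM over these libraries, so that the order of these neighbours is within their spread. The core subunits lay between 78.7 FPKM for Ndufs1, the largest core subunit, and 244 FPKM for Ndufv2. At the low end were Ndufa10l1 (26.5), Ndufb4 (10.1), the Ndufs6 row (3.59) and Ndufa4l2 (1.61). Ndufa4l2 was at 0 counts in 2 libraries and reached 5.72 CPM in the highest, FOD-CCI replicate 2. Ndufa4l2 and the Ndufs6 row did not pass the low-count filter among the left libraries, where 34 of 36 members were tested. All 36 were tested between sides, and all but Ndufa4l2 among the contralateral and sham libraries.

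The members moved together across libraries. Each of the 34 members tested among left libraries was centred on its own mean log2 CPM over the 19 libraries, and their median gives the standing of a library. It was 1.73 in SOD-CT replicate 1, where all 34 members were above their means. In the other SOD-CT libraries it was -0.02, -0.24 and 0.04. The 3 SOD-CCI libraries had the values -0.20, -0.61 and -0.50, which include the lowest of all 20. FOD-CT had -0.10, 0.24 and 0.00 (-0.003), and FOD-CCI had 0.43, 0.18, -0.16 and -0.19. Contralateral DRG had 0.43, -0.08 and -0.35 in SOD-CCI rats and 0.22, 0.33 and 0.46 in FOD-CCI rats. The FOD contralateral libraries were thus all positive, whereas the SOD contralateral libraries spread from the level of the highest FOD library to that of the injured SOD side.

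**Figure D1:**
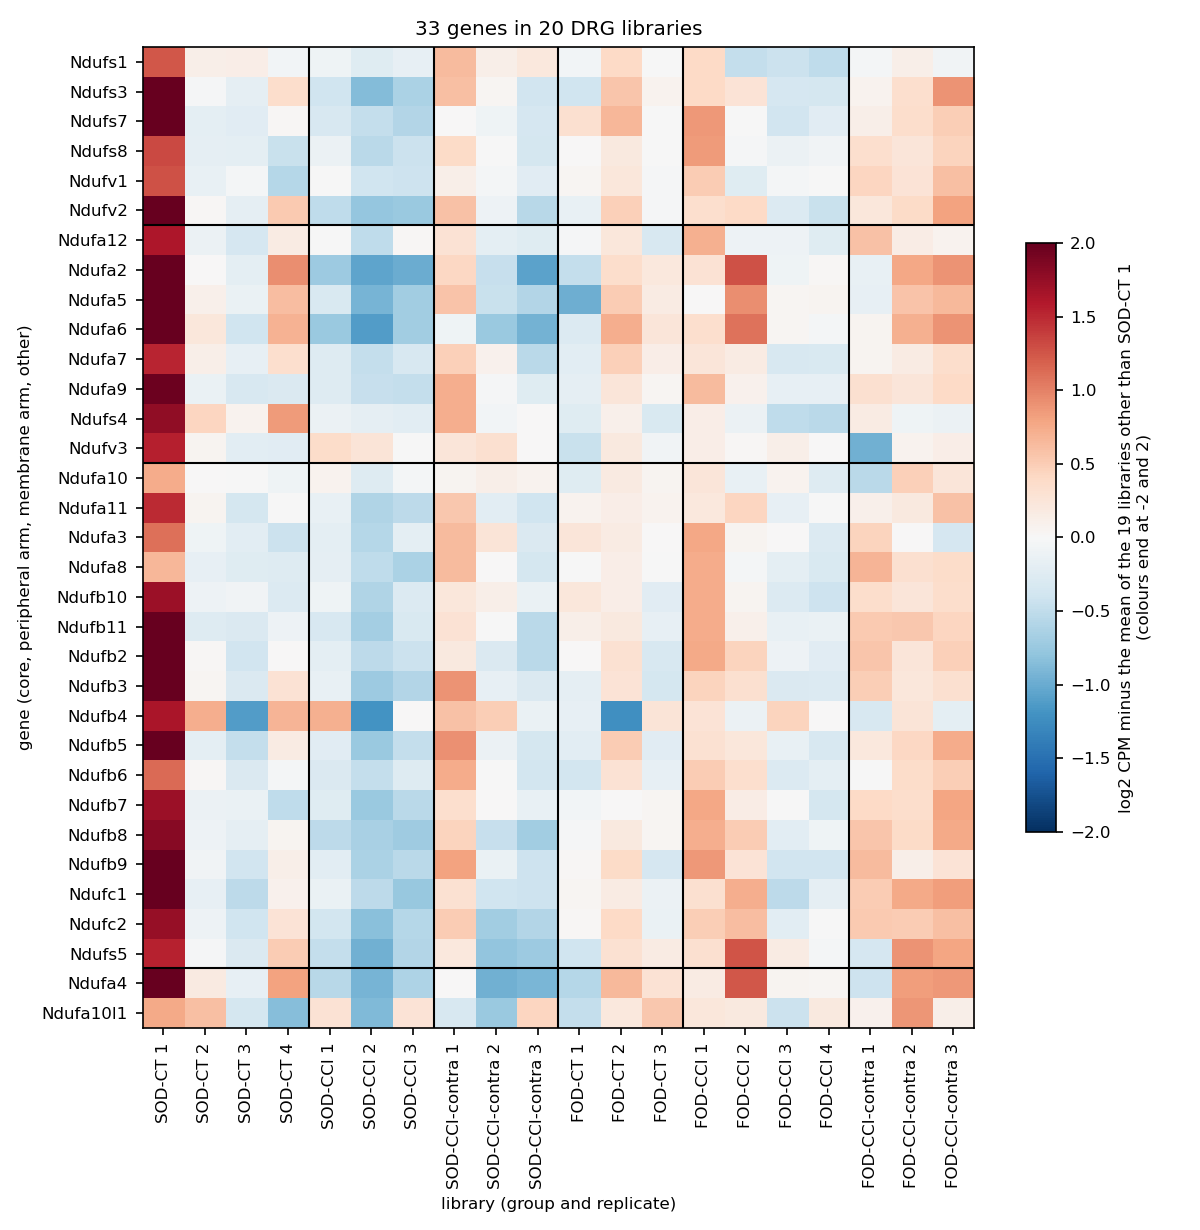
Each row is 1 of 33 of the 34 members tested among left libraries and each column 1 of the 20 libraries. Colour gives log2 CPM less the gene's mean over the 19 libraries other than SOD-CT 1, ending at -2 and 2. SOD-CT 1 is red in every row (median 1.73), the SOD-CCI columns are mostly blue (medians -0.20, -0.61 and -0.50), and Ndufa2, Ndufa5, Ndufa6, Ndufs5 and Ndufa4 are, apart from SOD-CT 1, reddest in FOD-CCI 2.

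Likeness to the members' median profile, as Pearson's r over the 20 libraries, was highest for Ndufv2 (0.976), Ndufs3 (0.973) and Ndufa9 (0.970), and these values share the muscle library. Over 19 libraries Ndufv2 had 0.938, Ndufs3 0.936 and Ndufb5 0.936. The core subunit Ndufs1 had 0.443 over 19 libraries and the peripheral-arm subunit Ndufv3 had -0.07. Among the 32 members that encode subunits and passed the filter in the left libraries, the SD of log2 CPM over 19 libraries was largest for Ndufa2 (0.689) and Ndufa6 (0.653) and smallest for Ndufa10 (0.226), a membrane-arm subunit related to nucleoside kinases, and Ndufs1 (0.296). Likeness here is a description over libraries that share depth and tissue content.

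After injury on the soy oil diet, all 34 tested members had negative log2 fold changes against sham, but the size depended on the library with muscle transcripts. The median over members was -1.09 with all libraries and -0.29 without SOD-CT replicate 1, beside -0.01 over all genes tested with all libraries. No member and no gene was called by edgeR (0% of 14484), and the smallest adjusted p over members was 0.266. In 22 of 34 members, all lower, the unadjusted p was under 0.05, against 13.8% of all genes, and without SOD-CT replicate 1 for 9 of 35, all lower, against 8.07%. DESeq2 called 11 members lower with all libraries, against 4.10% of genes called, and none without that library. In 13 of 34 members every SOD-CCI library was below every SOD-CT library, against 7.48% of genes. The count was also 13 with SOD-CT replicate 1 left out, against 10.1%.

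Among the core subunits, Ndufv2, which carries an iron-sulfur cluster near the NADH site, measured 1217, 219, 192 and 310 CPM in the SOD-CT libraries and 153, 126 and 129 CPM in SOD-CCI. Ndufs3, of the hydrophilic module that hands electrons to ubiquinone, measured 651, 134, 120 and 173 CPM in SOD-CT and 103, 74.4 and 88.0 CPM in SOD-CCI. The groups did not overlap for either gene, and replicate 1 was several times above the other sham libraries. The log2 fold change of Ndufv2 was -1.83 (SE 0.55, adjusted p = 0.266 by edgeR) with all libraries and -0.83 (SE 0.27, adjusted p = 0.529) without SOD-CT replicate 1. Ndufs7 was at 469 CPM in SOD-CT replicate 1, 80.5 to 96.5 CPM in the other sham libraries and 62.8 to 75.6 CPM in SOD-CCI. Without the muscle library, the log2 fold change was -0.04 (SE 0.22) for Ndufv1, the subunit that binds NADH, and -0.10 (SE 0.24) for Ndufs8, a carrier of iron-sulfur clusters. It was -0.25 (SE 0.24) for Ndufs1, whose adjusted p in that fit was 0.825.

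Ndufa6 and Ndufa2, the members with the lowest fitted values after injury, encode peripheral-arm subunits, but members of all roles were lower. With all libraries the medians were -1.09 for the peripheral arm, -1.23 for the membrane arm and -0.95 for the core. Without SOD-CT replicate 1 they were -0.57, -0.29 and -0.25. Ndufa2, a small subunit with a thioredoxin-like fold, measured 419, 105, 91.3 and 199 CPM in SOD-CT and 63.3, 50.5 and 52.7 CPM in SOD-CCI, and it had the smallest p (log2 fold change -1.87, SE 0.50, adjusted p = 0.266 by edgeR). Ndufa6, a LYR protein that binds the acyl carrier protein, had the lowest log2 fold change (-2.02, SE 0.58), with 823, 174, 112 and 239 CPM in SOD-CT and 89.0, 68.6 and 91.5 CPM in SOD-CCI. All SOD-CCI libraries were below all sham libraries for both genes. Without SOD-CT replicate 1 the log2 fold changes were -1.26 (SE 0.39) for Ndufa2 and -1.09 (SE 0.36) for Ndufa6, each with an adjusted p of 0.529. Ndufa5, a small subunit at the base of the peripheral arm, measured 758, 191, 162 and 274 CPM in SOD-CT and 144, 93.5 and 110 CPM in SOD-CCI, again without overlap. Ndufv3 went the other way once that library was left out, with a log2 fold change of 0.33 (SE 0.18, adjusted p = 0.692), as against -0.29 with all libraries. Among the 17 membrane-arm members the fitted values ran from -1.43 to -0.27 with all libraries. The highest value of all was that of the paralog Ndufa10l1 (-0.19, SE 0.40), which turned to 0.06 without SOD-CT replicate 1.

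**Figure D2:**
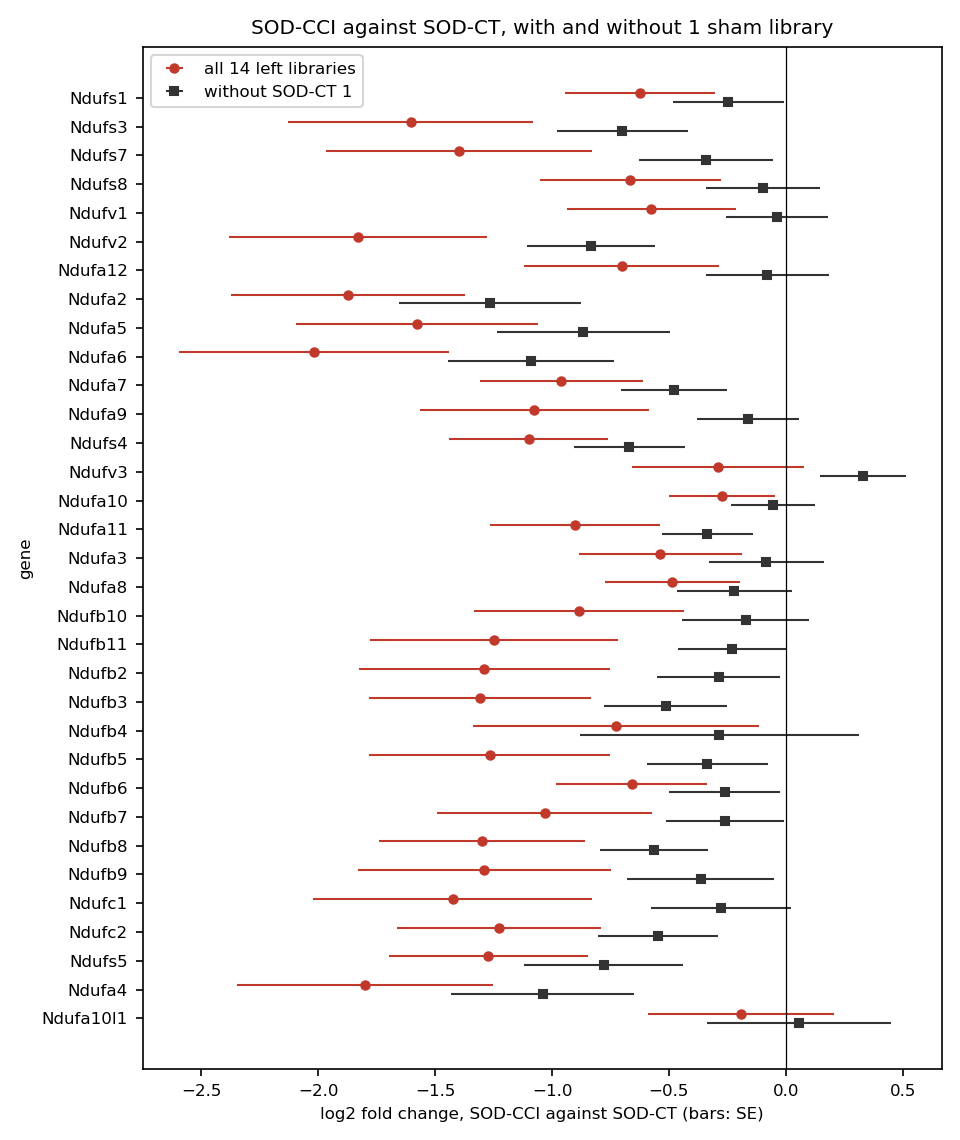
Log2 fold change of 33 of the 34 members in SOD-CCI against SOD-CT, with bars for the SE, in the fit of all 14 left libraries (circles) and in the fit without SOD-CT 1 (squares). All circles are below 0, with a median over the 34 members of -1.09, and the squares are nearer to 0 except for Ndufv3 (-0.29 and 0.33), with Ndufa2 (-1.26) and Ndufa6 (-1.09) the lowest.

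Several cell type lists moved with this comparison. The muscle list's summed level was 16.2 to 234482 CPM in SOD-CT, with the highest value in replicate 1, and 19 to 98.7 CPM in SOD-CCI, where 1 of the 17 genes was at 0 in every library. SOD-CT replicates 2, 3 and 4 had 219, 16.2 and 8109 CPM. Leaving replicate 1 out thus did not remove the muscle difference. All 8 tested muscle genes were still lower in SOD-CCI in that fit (median -5.85). Sensory neuron markers summed to 15138 to 34910 CPM in SOD-CT and 26120 to 31077 CPM in SOD-CCI. Red cell genes summed to 125 to 9289 CPM in SOD-CT and 96.6 to 663 CPM in SOD-CCI, with lower fitted values for 5 of 5 genes (median -3.11), and macrophage markers to 60.1 to 211 CPM and 209 to 318 CPM, with higher fitted values for 9 of 10 genes (median 0.76). In SOD-CT replicate 1, Ndufa6 was 4.72 times, Ndufv2 5.56 times and Ndufa10 1.68 times the median of the other SOD-CT libraries. The part of these cell types in the change of each member was not tested beyond leaving that library out.

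On the fish oil diet, the members' fitted changes after injury lay on both sides of 0. Against FOD-CT, 24 of 34 members had higher and 10 lower fitted values in FOD-CCI, with a median log2 fold change of 0.13. No member and no gene was called (0% of 14484 by edgeR), no member had an unadjusted p under 0.05 (4.52% of genes did), and DESeq2 called no member either. In none of the 34 members were the 2 groups free of overlap, against 4.69% of genes. The highest value was that of Ndufs5, a membrane-arm subunit on the intermembrane space side, at 0.46 (SE 0.42, adjusted p = 1 by edgeR), with 133, 218 and 198 CPM in FOD-CT and 219, 421, 197 and 172 CPM in FOD-CCI. It was 0.096 without FOD-CCI replicate 2 and 0.27 without FOD-CT replicate 1. The lowest was Ndufs1, at -0.33 (SE 0.32), with 195, 268 and 202 CPM in FOD-CT and 267, 145, 151 and 143 CPM in FOD-CCI. It was -0.60 without FOD-CCI replicate 1 and -0.17 without FOD-CT replicate 2. With the 2 left libraries that held spinal cord transcripts left out, the median over members turned to -0.14, and without FOD-CCI replicate 1 alone to -0.12. Red cell genes summed to 345 to 858 CPM in FOD-CT and 566 to 22320 CPM in FOD-CCI, with higher fitted values for 5 of 5 genes (median 3.33). Macrophage markers summed to 76.2 to 291 CPM and 173 to 730 CPM, with higher fitted values for 10 of 10 genes (median 1.51). Muscle genes summed to 937 to 35194 CPM in FOD-CT and 18.3 to 322 CPM in FOD-CCI. The part of these cell types in the members' values was not tested.

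FOD-CCI and SOD-CCI rats had the same injury and different diets, and here most members were higher on fish oil. Of 34 members, 31 had higher fitted values in FOD-CCI, with a median log2 fold change of 0.56 beside 0.04 over all genes. The core median was 0.57 (6 of 7 higher), the peripheral-arm median 0.42 (6 of 8) and the membrane-arm median 0.56 (17 of 17). No member or other gene was called by edgeR (0% of 14484, smallest adjusted p of a member 0.859), nor any member by DESeq2. An unadjusted p under 0.05 was found for 4 members, all higher, against 5.40% of genes. In the fit without SOD-CT replicate 1, a library in neither group whose spread enters the shared estimate, that number was 22 of 35, all higher, against 9.89% of genes, with a median of 0.57. DESeq2 without that library called 6 members higher (Ndufb8, Ndufa2, Ndufa6, Ndufs5, Ndufa4 and Ndufc2), against 1.16% of genes called. In 13 of 34 members every FOD-CCI library was above every SOD-CCI library, against 7.53% of genes.

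Ndufa2 had the smallest p and the largest difference, with 128, 253, 98.9 and 106 CPM in FOD-CCI beside 63.3, 50.5 and 52.7 CPM in SOD-CCI. All FOD-CCI libraries were above all SOD-CCI libraries, and replicate 2 was the highest. The log2 fold change was 1.40 (SE 0.49, adjusted p = 0.859 by edgeR), and 1.41 (SE 0.37, adjusted p = 0.433) without SOD-CT replicate 1. Ndufa5 measured 179, 338, 183 and 185 CPM in FOD-CCI, above the 93.5 to 144 CPM of SOD-CCI (log2 fold change 0.93, SE 0.50). Its highest library was again replicate 2. Ndufv3 had the lowest value (-0.15, SE 0.37), with 98.3, 91.0, 97.1 and 90.4 CPM in FOD-CCI and 116, 108 and 89.5 CPM in SOD-CCI.

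The 4 FOD-CCI libraries were not alike. Ndufa2, Ndufa4, Ndufa5, Ndufa6 and Ndufs5 peaked in replicate 2, whereas Ndufs1, Ndufs3, Ndufs7, Ndufs8 and Ndufv1 were highest in replicate 1. Replicate 1 was the library with spinal cord glia genes at 2213 CPM, against 12.4 to 13.4 CPM in SOD-CCI. Without replicate 1 the median difference between diets was 0.34, with 29 of 34 members higher. Replicate 2 was the library with red cell genes at 22320 CPM. These genes summed to 96.6 to 663 CPM in SOD-CCI and 566, 1766 and 1381 CPM in FOD-CCI replicates 1, 3 and 4. SOD-CT replicate 4 was the other library high in red cell genes. After replicate 1, it was the highest SOD-CT library for Ndufa2, Ndufa5, Ndufa6 and Ndufs5. It also held more muscle transcripts (8109 CPM) than SOD-CT replicates 2 and 3 (219 and 16.2 CPM). Its sum of Schwann cell markers (8 genes), 50368 CPM, was the highest in SOD-CT. The contralateral library of FOD-CCI rat 1, next in red cell genes at 4732 CPM, was the lowest of its group for Ndufa2, Ndufa5, Ndufa6 and Ndufs5. That library also held spinal cord glia genes at 3470 CPM and had the lowest sum of neuron markers, 4584 CPM. Without FOD-CCI replicate 2 the median was 0.56, with 32 of 34 members higher. Muscle genes summed to 18.3 to 322 CPM in FOD-CCI and 19 to 98.7 CPM in SOD-CCI, neuron markers to 21553 to 28218 CPM and 26120 to 31077 CPM, and macrophage markers to 173 to 730 CPM and 209 to 318 CPM. The part of these other cell types in the members' differences was not tested beyond leaving libraries out. Members are short genes (311 to 2478 bases, median 668, against a median of 1956 for protein-coding genes), and in this comparison log2 fold change fell with gene length across all genes (Spearman's rho -0.347) and across the 34 members (-0.376). Less the trend on length over all genes, the members' median was 0.18.

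**Figure D3:**
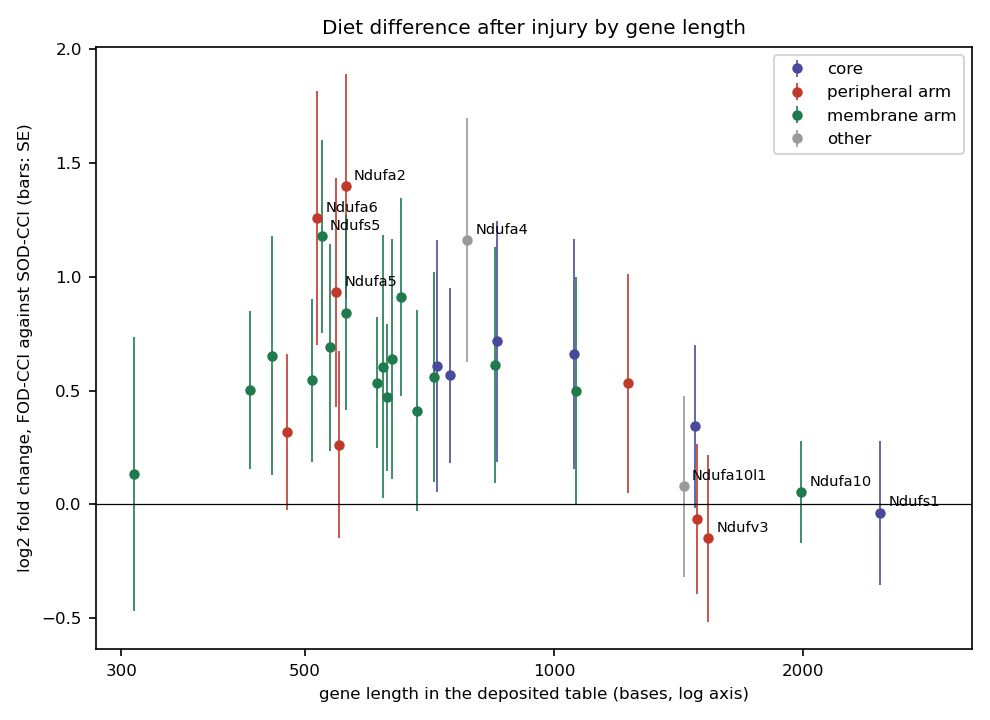
Log2 fold change of 33 of the 34 members in FOD-CCI against SOD-CCI (bars, SE) by the gene length in the deposited table (log axis), coloured by role. Ndufa2 (1.40), Ndufa6 (1.26), Ndufs5 (1.18) and Ndufa4 (1.16) are highest, other short genes such as Ndufa7 (0.32) and Ndufa12 (0.26) are lower, and the longest genes, among them Ndufs1 (-0.04), Ndufv3 (-0.15) and Ndufa10, are near 0.

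**Figure D4:**
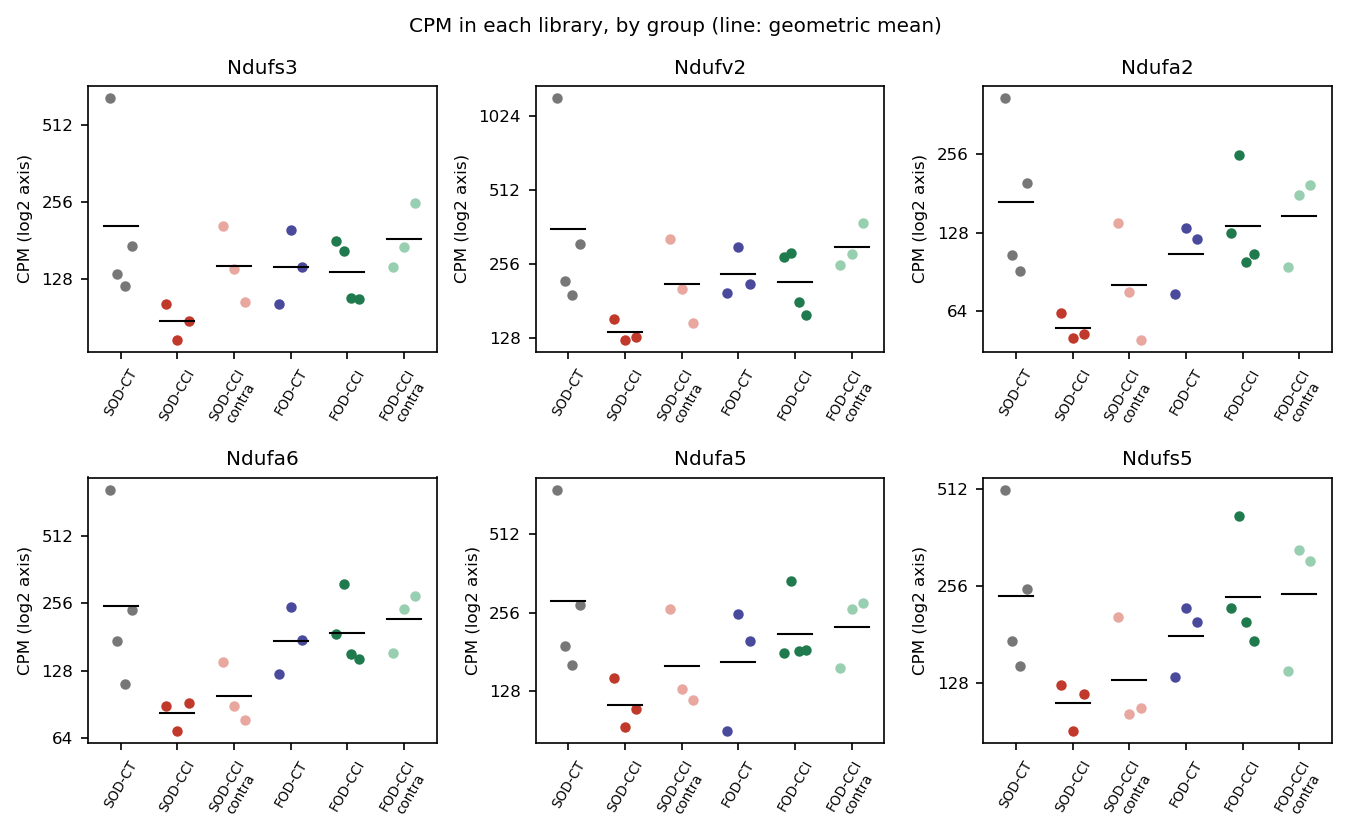
CPM (log2 axis) of 6 members in each of the 20 libraries by group, with a line for the geometric mean. For all 6 (Ndufs3, Ndufv2, Ndufa2, Ndufa6, Ndufa5 and Ndufs5) the 3 SOD-CCI points lie below all SOD-CT points and below all FOD-CCI points, and the SOD-CT point at the top is replicate 1. These 6 are not typical of the members. SOD-CCI was free of overlap with SOD-CT in 13 of 34 members (7.48% of genes) and with FOD-CCI in 13 of 34 (7.53% of genes).

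Without injury, the difference between the diets turned on the muscle library. All 34 members had lower fitted values in FOD-CT than in SOD-CT (median log2 fold change -0.59). The median was instead 0.14 without SOD-CT replicate 1, where 27 of 35 members were higher. It was -0.06 (15 of 35 higher) when FOD-CT replicate 2, the library with the next most muscle transcripts, was left out as well. With the replicate number as a block and without SOD-CT replicate 1 it was 0.02, with 19 of 35 higher. No member or gene was called (0% by edgeR, no member by DESeq2). Ndufs4, an accessory subunit at the NADH end of the peripheral arm, was the single member with an unadjusted p under 0.05 (3.39% of genes, and 3.17% without SOD-CT replicate 1, where it was again the single member) and is named after its values were seen. It measured 415, 162, 127 and 218 CPM in SOD-CT and 102, 130 and 97.5 CPM in FOD-CT, with overlap of the groups (log2 fold change -1.06, adjusted p = 0.965 by edgeR, and -0.62 without SOD-CT replicate 1, adjusted p = 0.998).

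The diet by injury interaction, which compares the change after injury on fish oil with that on soy oil, was positive in all 34 members, with a median of 1.18. It shares its libraries with the comparisons above. No member or gene was called by edgeR (0%, smallest adjusted p of a member 0.894), an unadjusted p under 0.05 was found for 9 members, all higher (5.01% of genes), and DESeq2 called 3 members (Ndufs5, Ndufa4 and Ndufa6, against 0.29% of genes). Ndufa2 had the smallest p (2.29, SE 0.69). Without SOD-CT replicate 1 the median was 0.37, 31 of 35 members were positive, 6 had an unadjusted p under 0.05 (3.97% of genes), and DESeq2 called none.

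The contralateral DRG give a comparison within the rat that involves no sham library. Muscle transcripts were also present in some contralateral libraries (up to 2837 CPM in SOD-CCI rats). In SOD-CCI rats, 32 of 36 members had lower fitted values in the left, injured DRG, with a median log2 fold change of -0.38 beside 0.02 over all genes. No member was called, while 19 genes were (0.131% of 14549). The smallest adjusted p of a member was 0.444 by edgeR, and DESeq2 called no member. An unadjusted p under 0.05 was found for 8 members, all lower, against 8.48% of genes. In a fit of these 6 libraries alone, edgeR called 8 members lower (Ndufs3, Ndufv2, Ndufb3, Ndufb5, Ndufb7, Ndufa8, Ndufa9 and Ndufb9), and 9.88% of genes were called. The left DRG was lower in all 3 rats for 19 of 36 members, against 19.4% of genes.

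Ndufb3, a small membrane-arm subunit, had the smallest p, with 67.3, 45.1 and 49.7 CPM on the left and 139, 67.0 and 61.5 CPM on the right of rats 1, 2 and 3 (log2 fold change -0.63, SE 0.22, adjusted p = 0.444 by edgeR). Ndufs3 had the lowest value, with 103, 74.4 and 88.0 CPM on the left and 206, 140 and 104 CPM on the right (-0.71, SE 0.30, adjusted p = 0.569). Ndufv2 measured 153, 126 and 129 CPM on the left and 324, 202 and 148 CPM on the right (-0.64, SE 0.28). The left side was lower in each rat for all of these genes, and rat 3 had the smallest differences. Ndufa4l2 had the highest value (1.90, SE 1.23), from 1.65, 1.39 and 3.66 CPM on the left and 0, 1.38 and 1.38 CPM on the right, levels too low to give a fold change weight. All 7 core subunits had lower fitted values on the left (median -0.47), as did all 17 membrane-arm members (median -0.39). Of 9 peripheral-arm members, Ndufv3 and the Ndufs6 row were the higher ones.

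Rats differed in the size of this change. The median over 34 members of left minus right, in log2 CPM, was -0.70, -0.45 and -0.11 in the SOD-CCI rats, with 30, 33 and 22 members lower on the left. Without SOD-CCI rat 1, whose contralateral library was the highest of the SOD contralateral libraries, the fitted median was -0.26. In the FOD-CCI rats the medians were 0.22, -0.04 and -0.63, with 5, 20 and 32 members lower on the left. The fitted median in FOD-CCI rats was -0.15 (30 of 36 members lower), no member was called (2 genes were, 0.0137%), none had an unadjusted p under 0.05 (6.96% of genes) and DESeq2 called none. The left DRG was lower in all 3 FOD-CCI rats for 3 members, Ndufs4 and Ndufc1 among them, against 10.8% of genes. The median turned to 0.09 without FOD-CCI rat 3, whose muscle genes summed to 11171 CPM on the right and 18.3 CPM on the left. The difference between diets in left against right was positive in 30 of 36 members (median 0.23), with no call (0% by edgeR, no member by DESeq2) and 1 member at an unadjusted p under 0.05 (Ndufa3, 0.75, SE 0.32, named after its values were seen, against 2.91% of genes). It was 0.00 (0.003) without FOD-CCI rat 1.

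**Figure D5:**
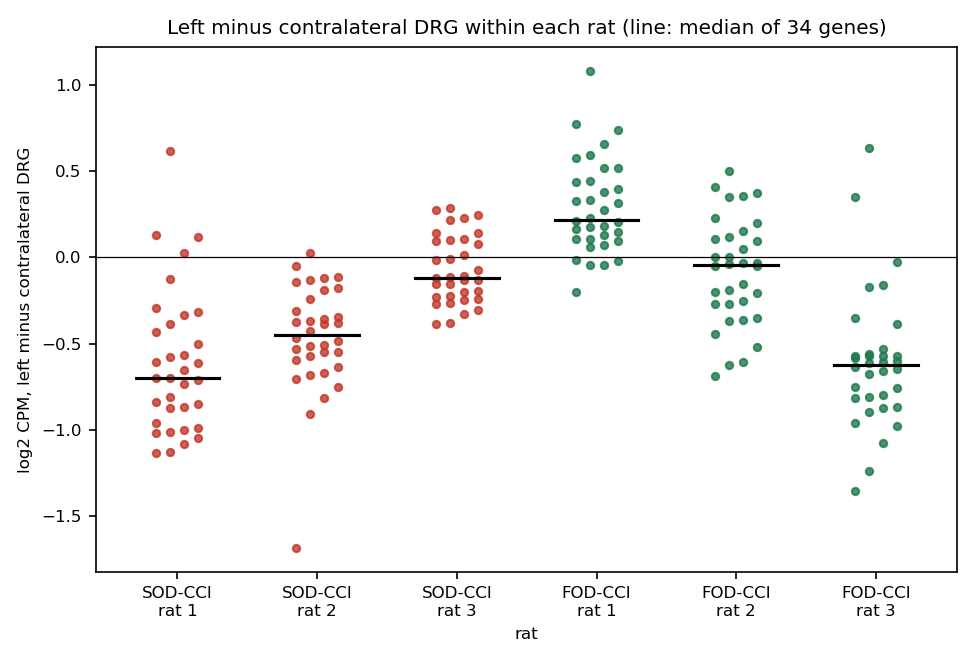
Log2 CPM in the left less the contralateral DRG of the same rat for 34 members (points), with the median as a line. The medians are -0.70, -0.45 and -0.11 in the SOD-CCI rats and 0.22, -0.04 and -0.63 in the FOD-CCI rats.

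Cell type markers also differed between the sides of SOD-CCI rats. Sensory neuron markers summed to 26120 to 31077 CPM on the left and 31196 to 37870 CPM on the right. The sums did not overlap, but the nearest values, 31077 and 31196 CPM, were the left and right libraries of rat 1. Of the 16 neuron genes, 5 had higher fitted values on the left, and the median log2 fold change was -0.09. Macrophage markers (10 genes) summed to 209 to 318 CPM on the left and 38.7 to 88.4 CPM on the right. No gene of either list was at 0 in all libraries of a side. In FOD-CCI rats, neuron markers ran from 21553 to 28218 CPM on the left and from 4584 to 34171 CPM on the right, lowest in rat 1, without which the fitted median of left against right was -0.36. Muscle genes summed to 19 to 98.7 CPM on the left and 20.3 to 2837 CPM on the right of SOD-CCI rats. Of the 9 tested, 0 had higher fitted values on the left (median -1.24). In FOD-CCI rats they summed to 18.3 to 322 CPM on the left and 22.4 to 11171 CPM on the right. Again 0 of 9 were higher on the left (median -3.87). The part of these cell types in the members' differences was not tested.

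The contralateral DRG of the diets were compared in the same way. In FOD-CCI against SOD-CCI contralateral DRG, 30 of 35 members had higher fitted values, with a median log2 fold change of 0.37. No member or gene was called by edgeR (0% of 14007) and no member by DESeq2. No member had an unadjusted p under 0.05 with all libraries (7.10% of genes), and 11 of 35, all higher, had it without SOD-CT replicate 1 (11.1% of genes). The groups did not overlap in 9 of 35 members, all higher on fish oil, against 7.76% of genes. Ndufa6 was among them, with 154, 242 and 277 CPM in FOD-CCI rats and 140, 88.5 and 77.2 CPM in SOD-CCI rats. Less the length trend the median was 0.02. The median was 0.40 without the contralateral library of FOD-CCI rat 1, which was low in neuron markers, 0.63 without that of SOD-CCI rat 1 and 0.24 (25 of 35 higher) without that of SOD-CCI rat 3. Without that of FOD-CCI rat 3, the contralateral library with most muscle transcripts, it was 0.29 (28 of 35 higher). Red cell genes summed to 1138 to 4732 CPM in the FOD-CCI and 130 to 355 CPM in the SOD-CCI contralateral libraries, and macrophage markers to 139 to 316 CPM and 38.7 to 88.4 CPM. Muscle genes summed to 22.4 to 11171 CPM and 20.3 to 2837 CPM, with higher fitted values on fish oil for 10 of 11 tested (median 1.86). Spinal cord glia genes summed to 7.38 to 3470 CPM and 13.8 to 25.4 CPM, with higher fitted values for 2 of 2 tested (median 4.23). The part of these cell types in the differences was not tested.

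Set against sham DRG, the contralateral side again depended on the muscle library. On the soy oil diet, 34 of 35 members were lower in the contralateral DRG than in SOD-CT (median -0.62), with no member or gene called (0% by edgeR, no member by DESeq2) and 5 members at an unadjusted p under 0.05 (7.06% of genes). Without SOD-CT replicate 1 the median was 0.05, 21 of 35 members were higher and 1 had an unadjusted p under 0.05 (3.84% of genes). On the fish oil diet, 31 of 35 members were higher in the contralateral DRG than in FOD-CT (median 0.35), with no call (0% by edgeR, no member by DESeq2) and no unadjusted p under 0.05 (1.71% of genes). That median was 0.50 without FOD-CT replicate 2, the FOD-CT library with most muscle transcripts (35194 CPM). It was 0.26 without the contralateral library of FOD-CCI rat 3, which held muscle genes at 11171 CPM.

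Other genes of mitochondrial respiration were read in the same fits, from lists of symbols. The 7 rows for Nduf genes or copies outside the rule with a mean over 500 counts, LOC679739 and Ndufab1 among them, were all lower in SOD-CCI than in SOD-CT (median -1.37, and -0.49 without SOD-CT replicate 1) and, after injury, all higher on fish oil than on soy oil (median 0.67), and none was called. Among 39 tested genes of complexes III, IV and V, 36 were higher on fish oil after injury (median 0.49, 7 of them at an unadjusted p under 0.05), and 37 of 39 were lower in SOD-CCI than in SOD-CT (median -1.25, and -0.33 with 36 of 40 lower without SOD-CT replicate 1). The 4 complex II genes had a median of 0.36 between the diets after injury. For 15 complex I assembly factors that median was 0.18 and for 10 genes of mitochondrial content, such as Cs and Vdac1, it was 0.21. The 9 tested regulators of nuclear mitochondrial genes, from a list with Ppargc1a, Nrf1 and Gabpa, had a median of 0.00 (-0.001). Between the sides of SOD-CCI rats the medians were -0.30 for complexes III to V, -0.44 for complex II, -0.35 for the assembly factors and -0.24 for mitochondrial content. No gene of these lists was called in any of these comparisons.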

How the data were processed

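Poly(A) RNA-seq counts per gene and FPKM values of 20 libraries were deposited by the authors. Per the submitters' processing notes, reads were trimmed with fastp, aligned with HISAT2 and counted with featureCounts 1.5.0-p3. The genome build, the strand setting and the handling of multiply mapped reads are not given in the sources used here. Deposited counts were tested and FPKM served only for levels per length.

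edgeR 4.0.16 in R 4.3.3 (TMM, quasi-likelihood test) was fitted across all genes with at least 10 counts in 90% of libraries, for the left libraries together, for both sides of the 6 rats sampled on both sides, with the rat as a block, and for contralateral with sham libraries. DESeq2 1.42.0 was an alternative, and the scripts were tested on simulated data. CPM values of single libraries are on the TMM scale. Left and right libraries with the same number came from the same rat by the labels. Their deviations from group means correlated at 0.114 to 0.431. This does not set them apart, because replicate 1 of FOD-CT and of the contralateral FOD-CCI DRG, from different rats, reached 0.576. All other replicates were different rats, and totals of 22547190 to 54437581 counts set the precision.

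The members and lists were chosen with earlier results of these data known. Named were the core subunits, Ndufa5, Ndufa4, Ndufa4l2, members failing the filter and, in 4 comparisons, those with the smallest p and the lowest and highest fold change. Members named beyond this, also those called only in alternative fits, were named after their values were seen. 1 of the members enters the counts and medians and is not reported singly here.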

Additional observations from a re-analysis of the deposited data

Results flagged for a closer look

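In the groups of 4 libraries, for genes singled out by the naming rule and the members' median, a highest or lowest value was marked where its gap to the nearest other, divided by the range of the group, exceeded Dixon's 95% critical value for 4 samples, which chance passes in about 1 in 20 groups. This held for 14 of 34 values tested. Over all 36 members, most of them not listed here, it held for 24 in SOD-CT, each time with replicate 1 apart, and for 7 in FOD-CCI. In SOD-CT the library apart was replicate 1, the one with muscle transcripts, in every case. The gap there was 0.878 of the range for Ndufb3, 0.901 for Ndufs1, 0.9 for Ndufs3, 0.853 for the Ndufs6 row, 0.959 for Ndufs7, 0.915 for Ndufs8, 0.885 for Ndufv2 and 0.912 for Ndufv3, all in CPM. The members' median deviation gave 0.869. In FOD-CCI the gap was 0.934 for Ndufa4 and 0.958 for Ndufa5, both highest in replicate 2. It was 0.932 for Ndufs1 and 0.934 for Ndufs8, both highest in replicate 1. For Ndufa10l1 it was 0.931, with the value apart the lowest, 26.0 CPM in replicate 3.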

How the results depend on the processing

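The number of members called was 0 in all 11 comparisons and rose under 4 alternatives. It was 11 in SOD-CCI against SOD-CT and 3 in the diet by injury interaction with DESeq2, 8 between the sides of SOD-CCI rats with only the libraries compared, and 6 in FOD-CCI against SOD-CCI with DESeq2 without SOD-CT replicate 1. The members' median log2 fold change in SOD-CCI against SOD-CT was -0.27 without SOD-CT replicate 1 and FOD-CT replicate 2, the 2 libraries with most muscle transcripts. It was -0.29 with DESeq2 without SOD-CT replicate 1, and -1.30 to -0.29 when each library was left out in turn. In FOD-CT against SOD-CT it was -0.06 without both muscle libraries, 0.023 with the replicate block without SOD-CT replicate 1, 0.14 with DESeq2 without that library and -0.80 to 0.14 with each library left out. For the interaction it was 0.45 without both muscle libraries, 0.54 with the replicate block and 0.38 with DESeq2, each of these 2 without SOD-CT replicate 1, 0.56 less the length trend, and 0.37 to 1.44 with each library left out. Without the libraries with spinal cord transcripts, FOD-CCI against FOD-CT gave -0.14. Less the length trend, the medians were 0.18 in FOD-CCI against SOD-CCI, 0.018 between the contralateral groups, 0.10 in FOD contralateral against FOD-CT, -0.074 in FOD-CCI against FOD-CT, -0.68 in SOD-CCI against SOD-CT, -0.35 in FOD-CT against SOD-CT and -0.36 in SOD contralateral against SOD-CT. With each library left out, FOD contralateral against FOD-CT ranged from 0.25 to 0.50, the contralateral groups from 0.24 to 0.63 and left against right in FOD-CCI rats from -0.36 to 0.093. Ndufa10l1 turned from lower to higher in SOD-CCI against SOD-CT without both muscle libraries (0.076), with the replicate block (0.012) or DESeq2 (0.051) without SOD-CT replicate 1, and with single libraries left out (-0.42 to 0.10). The replicate block with all libraries changed no call and gave medians of -1.03 in SOD-CCI against SOD-CT and 0.64 in FOD-CCI against SOD-CCI, and leaving the rat pairing out gave -0.41 between the sides of SOD-CCI rats. Numbers paired only the sides of a rat by the labels, although FOD-CT correlated with same-numbered FOD-CCI libraries at 0.191 to 0.429. The block and DESeq2 fits without SOD-CT replicate 1 were chosen after seeing the data. The causes were not tested beyond these settings. Of 783 values under alternatives, 751 were rated the same. For a named gene this meant the same sign and side of the threshold, and for a count of calls the same count. For a median it meant a shift below the pooled SD of the library medians (0.16 to 0.75 by comparison), whatever its sign. Some medians rated the same thus changed sign, such as SOD contralateral against SOD-CT (-0.62, and 0.05 without SOD-CT replicate 1).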
